A study of Alligator mississippiensis with 17 samples.

Results

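Replacement teeth of the American alligator were compared with the dental lamina from which new teeth bud, over all genes of an RNA sequencing table. The replacement tooth group holds 5 of the 17 libraries, those titled RT. The other 12 are dental lamina, of which 5 libraries are from the pre-initiation stage (PIS), 3 from the initiation stage (IS) and 4 from the early growth stage (EG). All tissue was dissected from untreated, laboratory-raised alligators 1 year of age, kept at 30 degrees, and no group carries a genetic change or a drug. The design text gives the purpose as following RNA expression through the tooth cycle. The reference level of a gene is the unweighted mean of the 3 stage means of the dental lamina, and a gene is followed most closely where it also differed from each single stage. Whether each library is a different animal is not stated, so every p-value reflects the spread among these libraries alone, which may be technical.

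A tooth is made by an epithelium and a mesenchyme that signal to each other. The epithelial ameloblasts secrete enamel proteins and proteases, and the mesenchymal odontoblasts secrete a collagen matrix that mineralises as dentin. The dental lamina is the epithelial strand, with its surrounding mesenchyme, that holds the cells of the next tooth generation, and its initiation is known to use WNT, BMP, FGF, hedgehog and ectodysplasin signals. These are bulk tissue libraries, so fewer cells of a type and less RNA per cell cannot be told apart.

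Levels below are RPKM, reads scaled to gene model length and sequencing depth, divided by a median-ratio factor for each library and called scaled RPKM. Fold changes are differences of log2(scaled RPKM + 0.5), which understate the change of genes near 0, and are given with their standard error. For each gene, the standard error and p-value rest on an estimate of spread shared by all groups. They may therefore be too small for genes that vary most among replacement teeth. The libraries held 9667270 to 37747400 alignments, the replacement teeth 25669500 to 37209700, and the factors ran from 0.758 to 1.22. The 10 most abundant genes took 20.8% to 30.5% of the summed RPKM in replacement teeth and 5.97% to 15.9% in dental lamina. On the first principal component, which took 44.0% of the variance, replacement teeth lay at 42.1 to 69.9, EG at 3.82 to 23.6, IS at -36.3 to -17.1 and PIS at -60.9 to -33.8. The second component (21.8%) spread the replacement teeth, with replicates 1 and 2 at -14.1 and -17.2 and replicates 3, 4 and 5 at 49.4, 29.6 and 53.5. Spearman's rho across genes between replacement tooth libraries was 0.873 to 0.961, a description in which the genes do not count as replicates. Because replicates 3 and 5 lay farthest from replicates 1 and 2, list counts are given also without replicates 3 and 5 where a count of 4 or more moves by over 1.5 times.

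**Figure D1:**
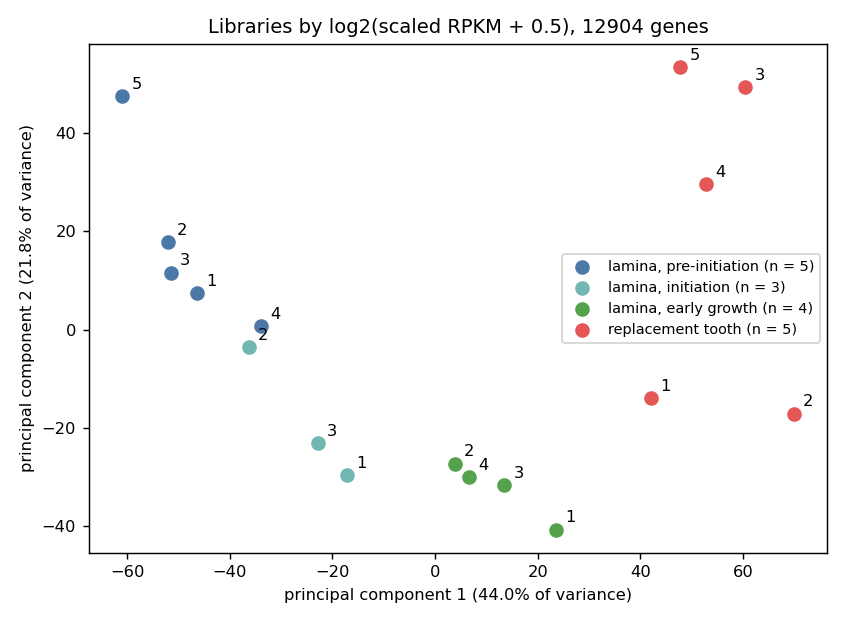
The 17 libraries on the first (x) and second (y) principal component of log2(scaled RPKM + 0.5) over 12904 genes, with replicate numbers beside the points. The 5 replacement tooth libraries lie at 42.1 to 69.9 on the first component, beyond all dental lamina libraries, and are spread along the second from -17.2 to 53.5.

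Of 12904 genes tested by limma, 2585 were higher (20.0%) and 2263 lower (17.5%) in replacement teeth than in the mean of the dental lamina stages, at a Benjamini-Hochberg adjusted p under 0.05. Against single stages, 5829 genes (45.2%) differed from PIS, 3399 (26.3%) from IS and 2018 (15.6%) from EG. Against EG, the nearest stage, 1197 were higher (9.28%) and 821 lower (6.36%). Genes that differed from every stage numbered 866 higher (6.71%) and 497 lower (3.85%). For 524 of the 866 and 368 of the 497, EG was the stage nearest to the replacement teeth. All 5 replacement tooth libraries lay above all 12 dental lamina libraries for 533 genes (4.13%) and below all 12 for 354 (2.74%). Without scaling, the median gene lay 0.24 lower in replacement teeth on the log2 scale, and 1355 genes were higher and 4683 lower, so that higher genes made up 22.4% of the calls in place of 53.3%. The 1355 higher and the 2263 lower genes were called in both analyses. Without replicates 3 and 5, 1528 genes were higher and 1329 lower than the mean, and 349 higher and 156 lower than every stage.

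Of 7 enamel matrix and protease genes tested, 6 rose against the mean of the stages, and amelotin alone rose against every stage. Of 45 genes of the secretory pathway 35 rose, and of 41 cytosolic ribosomal protein genes 40 fell. The chart of gene lists shows these shares beside those of all genes tested. Every list count below stands beside 20.0% of all genes tested that rose and 17.5% that fell.

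**Figure D2:**
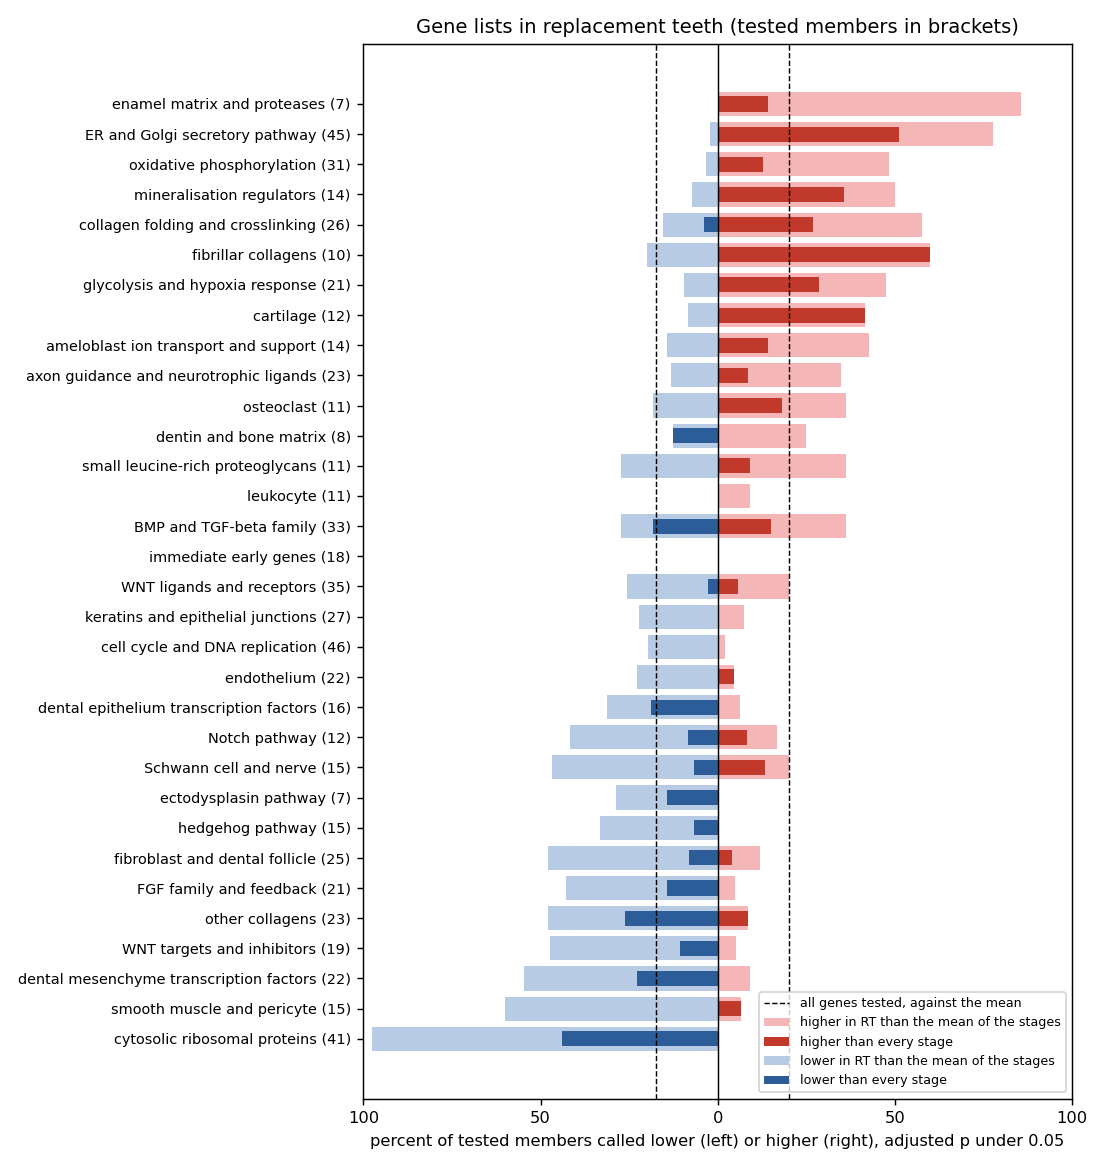
Share of each list's tested members called higher (right) or lower (left) in replacement teeth than in the mean of the dental lamina stages (pale) and than every stage (dark), in percent, for the lists with at least 7 tested members. Dashed lines mark the shares of all 12904 genes tested, 20.0% higher and 17.5% lower, and the lists run from enamel genes, with 6 of 7 higher, to ribosomal proteins, with 40 of 41 lower.

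AMTN encodes amelotin, a protein that ameloblasts of mammals secrete late in enamel formation. It stood at 235, 18.1, 128, 1999 and 38.8 scaled RPKM in replacement tooth replicates 1 to 5, and at 0 to 1.57 (median 0.28) in the 12 dental lamina libraries. All 5 replacement teeth lay above every dental lamina library, which was a condition for the place of AMTN among the greatest rises. The log2 fold change was 7.31 ± 0.73 (SE, adjusted p = 2.42e-06), or 6.63 against EG alone (adjusted p = 0.000252).

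The genes of the main enamel matrix proteins followed another course, since EG dental lamina already held them. AMBN, the gene of the matrix protein ameloblastin, stood at 1672, 4318, 186, 1599 and 12.7 scaled RPKM in replacement teeth and at 0 to 1617 (median 1.23) in dental lamina. Its log2 fold change was 6.30 ± 1.12 against the mean of the stages (adjusted p = 0.000424) but 0.93 against EG (adjusted p = 0.698), and the groups overlapped. ENAM, the enamelin gene, stood at 156, 1224, 17.5, 77.0 and 9.88 in replacement teeth and reached 463 in dental lamina. It rose by 4.41 ± 0.83 against the mean (adjusted p = 0.000666), with a difference of -0.97 from EG (adjusted p = 0.568). With the 12 dental lamina libraries taken as 1 group the ENAM call was lost (4.38, adjusted p = 0.0778). MMP20, the protease that trims the young enamel matrix, stood at 132, 321, 61.1, 69.6 and 5.38 in replacement teeth and at up to 107 in dental lamina, a rise of 4.29 ± 0.68 (adjusted p = 0.000157). Against EG its difference was 0.23 (adjusted p = 0.887). Replicate 5 was the lowest replacement tooth library for all 3 genes and replicate 2 the highest.

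FAM20A, a pseudokinase gene needed for enamel in mammals, and ACPT, an acid phosphatase gene linked to human enamel, completed the list of risers, by 1.29 (adjusted p = 0.000461) and 2.29 (adjusted p = 0.0111). The ACPT call was lost without replicates 1 and 2 (adjusted p = 0.151). The list's median log2 fold change was 4.29, beside -0.01 over all genes tested. AMELX, AMEL, DSPP and DMP1, other tooth matrix genes, were not analysed here because the table does not list them under those symbols. The most abundant transcript in replacement teeth, listed as LOC100552162L and not named further, stood at 73764, 45521, 702, 10937 and 45.8 scaled RPKM. Its 12 dental lamina values ran from 0.631 to 23587, its fold change was 6.09 ± 1.48 against the mean (adjusted p = 0.00417) and 0.24 against EG (adjusted p = 0.946). The call against the mean was lost without replicates 1 and 2 (adjusted p = 0.065) and with dental lamina as 1 group (adjusted p = 0.054). It was chosen for its abundance after its values were seen.

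**Figure D3:**
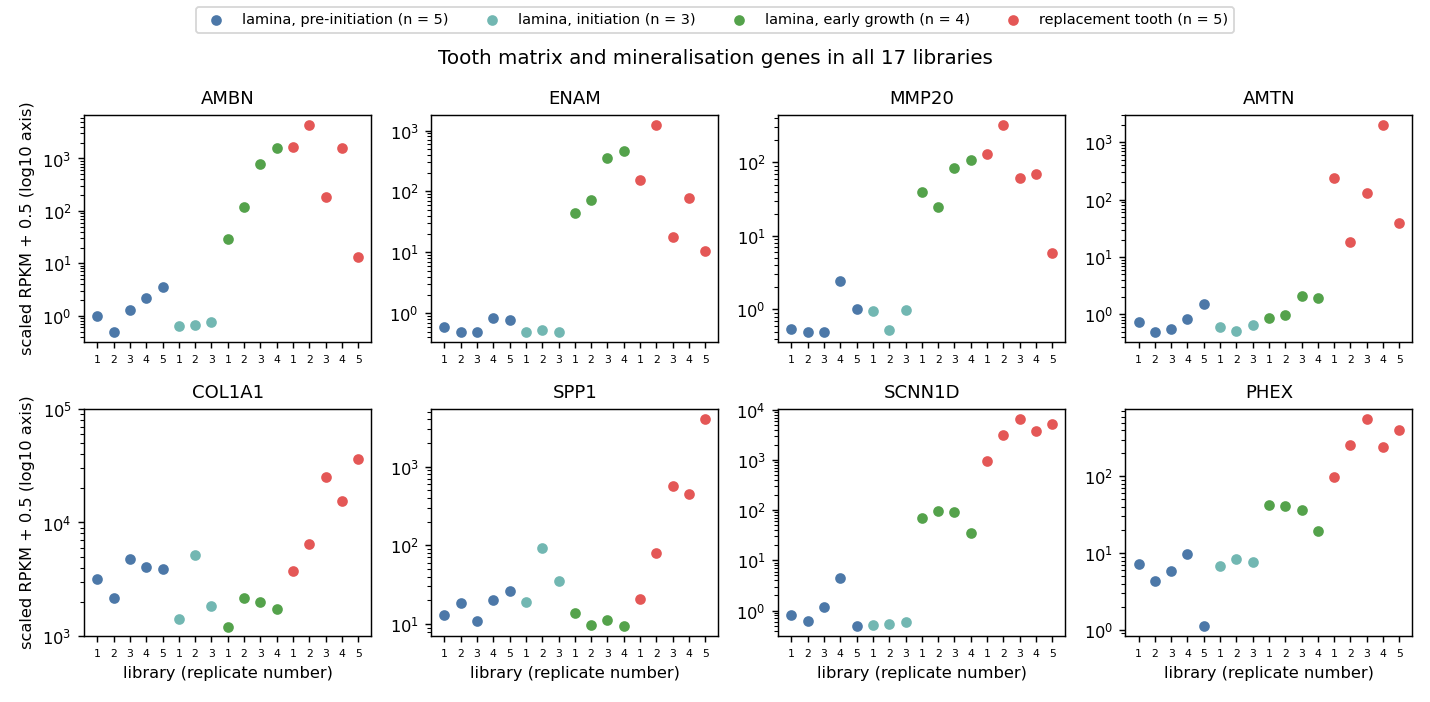
Scaled RPKM + 0.5 on a log10 axis (y, a range of its own in each panel) in each of the 17 libraries (x, replicate numbers within the groups) for 8 genes of enamel, dentin, mineralisation and ion transport. AMBN, ENAM and MMP20 in replacement teeth overlap EG, with replicate 5 the lowest. All 5 replacement teeth lie above dental lamina for AMTN, SCNN1D and PHEX, which was a condition of their choice among the greatest rises.

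Of 14 genes of ion transport and ameloblast support, 6 rose and 2 fell, beside 20.0% and 17.5% of all genes tested. Higher than every stage were SCNN1D and CA2. SCNN1D, known in humans as the delta subunit of the epithelial sodium channel, had the greatest fold change of the named genes. It stood at 940.0, 3135, 6490, 3793 and 5141 scaled RPKM in replacement teeth and at 0 to 94.4 (median 0.503) in dental lamina. The groups were far apart, with a log2 fold change of 9.91 ± 0.47 against the mean (adjusted p = 2.22e-09) and 5.60 against EG (adjusted p = 2.4e-05). EG dental lamina averaged 72 scaled RPKM, IS 0.044 and PIS 1.02. CA2, a carbonic anhydrase gene of acid-secreting cells, stood at 7.29, 21.9, 69.6, 87.2 and 178 in replacement teeth and at 1.12 to 6.92 (median 2.27) in dental lamina. CA2 rose by 3.95 ± 0.51 (adjusted p = 2.76e-05), and it belongs to the osteoclast list too.

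Of 14 mineralisation regulators 7 rose and 1 fell, and 5 rose against every stage. ENPP1, whose enzyme makes the mineral inhibitor pyrophosphate, stood at 45.2, 109.7, 206, 181 and 68.4 scaled RPKM in replacement teeth and at 0.731 to 7.19 (median 2.57) in dental lamina. Its log2 fold change was 5.00 ± 0.30 (adjusted p = 9.34e-09). No replacement tooth overlapped dental lamina, a condition of its choice among the greatest rises. PHEX, an endopeptidase gene mutated in inherited human hypophosphataemia, stood at 98.8, 252, 554, 239.8 and 397 beside 0.633 to 42.1 (median 7.47), a rise of 4.66 ± 0.43 (adjusted p = 9.68e-07). FAM20C, the Golgi kinase gene whose product phosphorylates secreted matrix proteins, stood at 37.3, 91.1, 176, 121 and 128 beside 1.93 to 15.4 (median 9.81), a rise of 3.32 ± 0.32 (adjusted p = 1.83e-06). SLC20A1, a phosphate transporter gene, and SP7, the gene of the osteoblast and odontoblast factor osterix, also rose against every stage. SP7 rose by 3.14 ± 0.39 (adjusted p = 1.81e-05), from 0.425 to 28.9 in dental lamina to 20.0 to 89.8 in replacement teeth. Its call against every stage, with an adjusted p of 0.0228 against EG, was lost without EG replicate 3 or 4 or without replacement tooth replicate 3 or 5. ALPL, the tissue-nonspecific alkaline phosphatase gene, was the member that fell, by 0.81 (adjusted p = 0.0398), and that call was lost in 12 of 30 other settings (adjusted p up to 0.377 without replicates 3 and 5).

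Fibrillar collagens rose and most other collagens did not. Of 10 fibrillar collagen genes 6 rose, each against every stage (4 to 6 with 1 library left out, and 3 without replicates 3 and 5), and 2 fell. Of 23 other collagen genes 2 rose and 11 fell. The medians were 1.65 and -1.21 on the log2 scale, and without replicates 3 and 5 they were 1.11 and -0.71.

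COL1A1, one chain of the type I collagen of dentin and bone, stood at 3759, 6439, 25166, 15569 and 36510 scaled RPKM in replacement teeth and at 1204 to 5155 (median 2148) in dental lamina. Its log2 fold change was 2.40 ± 0.46 (adjusted p = 0.000737) with replicate 1 inside the dental lamina range. Without IS replicate 1 it was not called against every stage. Without replicates 3 and 5 it was 1.58 (adjusted p = 0.0151). Quantile normalization, which gives the top gene of every library the same value, left 0.48 (adjusted p = 0.275), and COL1A1 was the top gene of PIS and IS. COL1A2, the other chain, rose by 1.95 ± 0.43 (adjusted p = 0.00215), with the same loss under quantile normalization (0.39, adjusted p = 0.249).

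The fibrillar genes COL11A2, COL11A1 and COL2A1 were lower in level than the type I chains and had smaller adjusted p. They were taken from the risers, and 2 of the 10 fibrillar genes fell. COL11A2, a type XI collagen gene, stood at 12.3, 31.2, 87.8, 53.2 and 113 scaled RPKM in replacement teeth and at 0.0305 to 1.44 (median 0.149) in dental lamina, a rise of 5.83 ± 0.35 (adjusted p = 1.08e-08). COL11A1 stood at 23.5, 93, 176, 115 and 266 beside 7.33 to 22.9 (median 12.8), a rise of 3.03 ± 0.39 (adjusted p = 2.42e-05). COL2A1, best known from cartilage, stood at 12.6, 26.2, 74.3, 47.5 and 89.2 beside 2.80 to 14.7 (median 4.69), a rise of 2.80 ± 0.40 (adjusted p = 6.09e-05). All 3 were lowest in replicate 1 and highest in replicate 5, and only COL2A1 overlapped dental lamina. For COL11A2, one of the greatest rises, a lack of overlap was a condition of its choice. COL3A1, a fibrillar collagen of soft connective tissue, was lower by 1.97 (adjusted p = 0.0253), at 337, 8.91, 113, 137 and 615 beside 226 to 855. Its call was lost without replicate 3 (adjusted p = 0.0564) and under quantile normalization (adjusted p = 0.0534).

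Among the other collagens, COL28A1 fell by 2.23 ± 0.23 (adjusted p = 2.81e-06) and COL21A1 by 2.53 ± 0.30 (adjusted p = 9.97e-06), both without overlap. COL4A5 and COL4A6, basement membrane chains, fell by 1.23 and 1.55 (adjusted p = 0.00123 and 0.000864). COL9A1, a partner of type II and XI fibrils, and COL22A1, a collagen of tissue junctions, were the members that rose, by 2.05 ± 0.24 (adjusted p = 1.17e-05) and 3.81 ± 0.47 (adjusted p = 1.73e-05).

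Of 26 genes that fold, cut and crosslink collagen 15 rose and 4 fell, with a median log2 fold change of 0.54. Without replicates 3 and 5 the counts were 9 and 3. LOXL4, of the lysyl oxidase family that crosslinks collagen, stood at 17.6, 30.3, 61.5, 48.6 and 77.5 scaled RPKM in replacement teeth and at 0 to 4.66 (median 0.139) in dental lamina. It rose by 5.27 ± 0.28 (adjusted p = 3.32e-09). SERPINH1, the collagen chaperone HSP47, rose by 1.71 ± 0.22 (adjusted p = 2.51e-05), from 39.6 to 69.1 in dental lamina to 94.7, 126, 245, 168 and 315 in replacement teeth. ADAMTS14, a procollagen peptidase gene, fell by 0.79 ± 0.10 (adjusted p = 2.44e-05), from 1.99 to 2.84 to levels of 0.978 to 1.44. None of these 3 overlapped between the groups, but for LOXL4, one of the greatest rises, that was a condition of its choice. Of the 26 genes, 5 had all replacement teeth above and 2 all below dental lamina, beside 4.13% and 2.74% of all genes tested.

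Matrix genes beside the collagens moved in both directions. Among 8 dentin and bone matrix genes 2 rose and 1 fell (1 and 1 without replicates 3 and 5), beside 20.0% and 17.5% of all genes tested. The list's median was -0.01, so the list as a whole lay where the median of all genes did. SPP1, the osteopontin gene, stood at 20.1, 79.7, 575, 452 and 4018 scaled RPKM in replacement teeth and at 9.0 to 91.3 (median 15.6) in dental lamina, a rise of 3.86 ± 0.82 (adjusted p = 0.00162). SPARC, the osteonectin gene, stood at 1406, 2431, 4791, 3319 and 6975 beside 654 to 2455 (median 1281), a rise of 1.42 ± 0.32 (adjusted p = 0.00281). Without replicates 3 and 5 the SPP1 change was 2.24 (adjusted p = 0.0215) and the SPARC call was lost (0.88, adjusted p = 0.0583). CLEC3B, the tetranectin gene, was the member that fell, by 3.74 ± 0.38 (adjusted p = 2.58e-06), from 8.77 to 78.4 (median 23.5) to 0.692, 0.182, 1.11, 3.00 and 4.66.

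Of 11 small leucine-rich proteoglycan genes 4 rose and 3 fell, beside 20.0% and 17.5% of all genes tested. However, 6 fell without scaling, without replicate 5 or without replicates 3 and 5. FMOD, the gene of the collagen-binding fibromodulin, was the member higher than every stage. It stood at 42.8, 34.7, 111, 67.5 and 33.4 scaled RPKM in replacement teeth and at 0.0861 to 2.90 (median 0.68) in dental lamina. FMOD rose by 5.33 ± 0.30 (adjusted p = 5.74e-09). The groups did not overlap, a condition for its place among the greatest rises.

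The secretory pathway, which carries matrix proteins from the endoplasmic reticulum through the Golgi, was mostly shifted up by small amounts. Of 45 genes, 35 rose and 1 (SSR4) fell against the mean, and 23 rose against every stage, or 15 to 26 with 1 library left out, the lowest of these without EG replicate 2 or 4. Without replicates 3 and 5, and likewise without scaling, 9 rose against every stage. The median log2 fold change was 0.56. Without scaling 23 rose and 2 fell against the mean, and without replicates 3 and 5 the counts were 25 and 1. CANX, the calnexin gene, stood at 96.3, 143, 166, 134 and 148 scaled RPKM in replacement teeth and at 55.6 to 88.6 (median 69.7) in dental lamina, a rise of 0.91 ± 0.10 (adjusted p = 7.25e-06). COPE, a coat subunit of transport back from the Golgi, rose by 0.78 ± 0.11 (adjusted p = 5.32e-05), and SEC13, a coat subunit of export from the reticulum, by 1.01 ± 0.15 (adjusted p = 7.94e-05). All 5 replacement teeth lay above dental lamina for CANX and SEC13, and replicate 1 overlapped it for COPE.

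The greatest rises, taken among symbol-named genes that differed from every stage with no overlap of libraries, held matrix genes together with genes of other roles. CKM, the muscle creatine kinase gene, stood at 75.7, 112, 147, 97.1 and 105 scaled RPKM in replacement teeth and at 0.0286 to 28.9 (median 0.792) in dental lamina, a rise of 5.41 ± 0.48 (adjusted p = 6.29e-07), and it no longer passed against every stage without replicates 3 and 5. The skeletal muscle marker ACTA1 was lower by 0.67 (adjusted p = 0.00931), at 1.83 to 4.39 in replacement teeth beside 3.29 to 8.32, and was not called without replicates 3 and 5 (adjusted p = 0.0909). Of the 19 muscle genes listed 13 were in the table, and just 3 passed the filter on low values. TAC4, a tachykinin precursor gene, stood at 8.66, 30.8, 39.6, 16.4 and 44.3 beside at most 0.277 in dental lamina. It rose by 5.37 ± 0.28 (adjusted p = 3.32e-09). TAC4 passed that filter, an RPKM of at least 1 in at least 3 libraries, through replacement teeth alone. SLC13A5, a sodium-coupled citrate transporter gene, stood at 14.7, 38, 60.0, 45.3 and 35.8 beside at most 6.74, a rise of 4.83 ± 0.26 (adjusted p = 3.32e-09). MAPK8IP1, a scaffold gene of JNK signalling, rose by 4.94 ± 0.25 (adjusted p = 2.7e-09), from at most 1.73 to a range of 12 to 50.3. That all 5 replacement teeth exceeded every dental lamina library was a condition for these risers, so it is no separate result. The same holds for AMTN, SCNN1D, ENPP1, PHEX, COL11A2, LOXL4 and FMOD, which are also among the 12 greatest rises. The remaining one of the 12 greatest rises carries a clone name and no annotation here, and stood at 18.3 to 101 scaled RPKM beside at most 2.70.

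**Figure D4:**
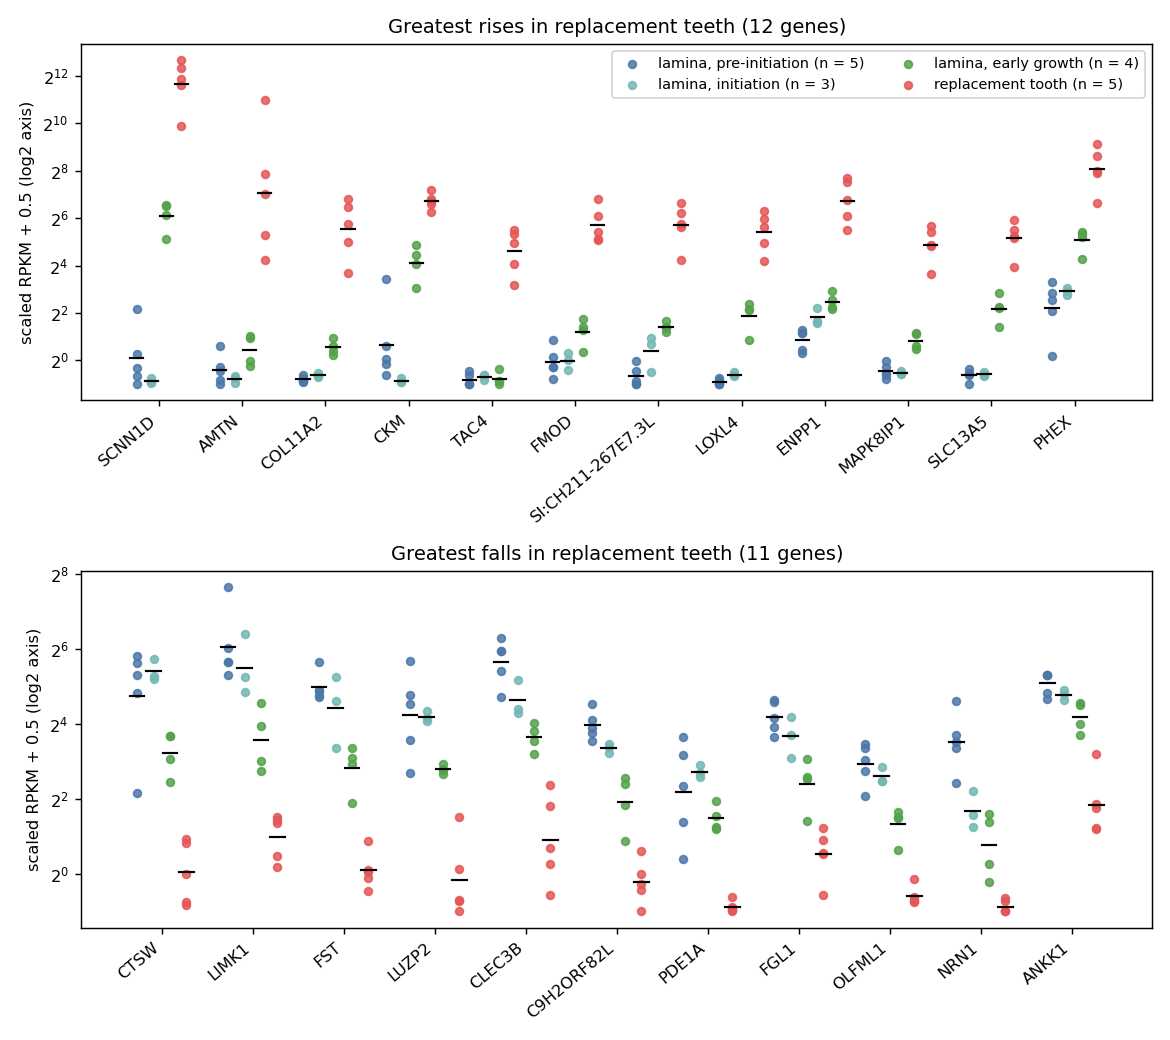
Scaled RPKM + 0.5 on a log2 axis (y) of the 12 greatest rises (top) and 11 of the greatest falls (bottom) among genes that differed from every stage without overlap, by gene (x), with a point per library and a bar at the mean of log2 values. EG points lie nearest to the replacement teeth for most genes, and rises span log2 fold changes of 4.66 to 9.91 and falls -4.42 to -2.84.

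The greatest falls began with CTSW, a cathepsin gene known from cytotoxic lymphocytes of mammals, at 0.0675, 0.0959, 0.50, 1.41 and 1.28 scaled RPKM beside 3.95 to 55.7 (median 32.4) in dental lamina. It fell by 4.42 ± 0.48 (adjusted p = 5.37e-06). Of 11 leukocyte genes tested 1 rose and 0 fell, with 0 and 2 without scaling and 4 and 2 without replicates 1 and 2. LIMK1, a kinase gene of actin turnover, stood at 0.906, 0.644, 2.19, 2.08 and 2.36 beside 6.18 to 200.3 (median 38.4) and fell by 4.04 ± 0.39 (adjusted p = 1.53e-06). NRN1, the neuritin gene, stood at 0 in replicates 1, 2 and 3 and at no more than 0.143 in the others, beside 0.356 to 24, a fall of 2.86 ± 0.32 (adjusted p = 6.3e-06), not called against every stage without EG replicate 2. PDE1A, a cyclic nucleotide phosphodiesterase gene, fell by 3.02 ± 0.37 (adjusted p = 1.76e-05), from 0.809 to 12.2 (median 3.99) to at most 0.147. LUZP2, C9H2ORF82L, FGL1, OLFML1 and ANKK1 fell by 2.84 to 3.90 on the log2 scale. The greatest falls were chosen among genes with replacement teeth below every dental lamina library, so that separation is no separate result. NRN1, PDE1A and OLFML1 passed the filter on low values through dental lamina alone. CTSW, FST and CLEC3B also needed dental lamina to pass it, since fewer than 3 of their replacement tooth libraries reached an RPKM of 1.

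Genes of secreted antagonists of BMP and activin ligands moved in both directions. FST, the follistatin gene, stood at 0.421, 0.539, 0.234, 0.582 and 1.33 scaled RPKM in replacement teeth and at 3.23 to 49.7 (median 24.9) in dental lamina. It fell by 3.98 ± 0.29 (adjusted p = 9.26e-08) and by 2.72 against EG (adjusted p = 0.000208). GREM1, a BMP antagonist gene, stood at 0.797, 0.142, 0.452, 2.62 and 2.63 beside 2.41 to 20.5 (median 7.80), a fall of 2.41 ± 0.35 (adjusted p = 8.58e-05). FST belongs to the greatest falls, for which a lack of overlap was a condition, and for GREM1 the groups overlapped. FSTL3, the gene of another activin antagonist, rose by 1.42 ± 0.45 (adjusted p = 0.0209), at 29.4 to 108 beside 10.2 to 82.2, and was named after its values were seen. Its call was lost without replicate 3 (adjusted p = 0.0723) or 5 (adjusted p = 0.0685).

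The BMP and TGF-beta list as a whole moved in both directions, with 12 of 33 higher and 9 lower, a median of -0.04, and 11 higher and 13 lower without scaling. BMP4, a mesenchymal signal of tooth development, stood at 14.9, 4.52, 16.9, 13.1 and 16.4 scaled RPKM in replacement teeth and at 2.15 to 7.36 (median 5.12) in dental lamina. It rose by 1.39 ± 0.30 (adjusted p = 0.00185) with replicate 2 inside the dental lamina range. SMAD6, an inhibitor that BMP signalling itself induces, stood at 29.6, 27.7, 57.1, 41.1 and 59.7 beside 6.94 to 21.5 (median 13.2), a rise of 1.81 ± 0.21 (adjusted p = 1.06e-05) with no overlap.

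Of 35 WNT ligand and receptor genes 7 rose and 9 fell, beside 20.0% and 17.5% of all genes tested, and without scaling 5 rose and 17 fell. The falls numbered 14 without replicate 2 and 5 without replicate 4, and without replicates 3 and 5 there were 5 rises and 4 falls. WNT1 stood at 1.24, 3.69, 4.58, 3.35 and 3.09 scaled RPKM in replacement teeth and at 0.135 to 0.602 (median 0.328) in dental lamina, a rise of 2.09 ± 0.20 (adjusted p = 1.97e-06). WNT5A, a ligand mostly of the pathway without beta-catenin, stood at 40.4, 68.2, 109, 87.1 and 53.3 beside 15.7 to 51.5 (median 20.5), a rise of 1.54 ± 0.20 (adjusted p = 2.37e-05). FZD8, a receptor gene, stood at 17, 11.8, 3.45, 5.98 and 2.39 beside 20.1 to 49.1 (median 29.5) and fell by 2.17 ± 0.32 (adjusted p = 8.4e-05). WNT1 and FZD8 libraries did not overlap between the groups. WNT1 passed the filter on low values through replacement teeth alone, which favours such a separation.

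Targets and inhibitors of the WNT pathway were lower in 9 of 19 cases and higher in 1, with a median of -0.92. LEF1, a transcription factor and target of the pathway, stood at 4.64, 1.75, 3.68, 7.29 and 8.79 scaled RPKM beside 4.60 to 26.7 (median 12.8). LEF1 fell by 1.47 ± 0.32 against the mean (adjusted p = 0.00184) and did not pass the test against EG (-1.16, adjusted p = 0.0586). SFRP1 and DKK2, genes of secreted WNT inhibitors, fell by 2.12 ± 0.30 (adjusted p = 6.49e-05) and 2.62 ± 0.46 (adjusted p = 0.000367). LGR5, an R-spondin receptor gene used as a stem cell marker in other tissues, was higher by 1.12 ± 0.24 (adjusted p = 0.00162), at 1.16 to 3.83 beside 0.181 to 1.55. LGR5 was picked after its values were seen.

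Of 21 genes of the FGF family and its feedback 9 fell and 1 rose. The falls numbered 5 without replicates 3 and 5 and 13 without replicates 1 and 2. FGF10 stood at 6.29, 0.192, 0.739, 0.492 and 0.274 scaled RPKM in replacement teeth and at 2.36 to 16.2 (median 7.97) in dental lamina, a fall of 2.57 ± 0.40 (adjusted p = 0.00013) with replicate 1 alone inside the dental lamina range. FGF7 fell by 2.49 ± 0.34 (adjusted p = 4.33e-05), from 3.35 to 19.3 to at most 2.56. DUSP6, a phosphatase gene that FGF signalling induces, fell by 1.08 ± 0.16 (adjusted p = 8.63e-05), at 3.81 to 5.85 beside 6.08 to 18.2.

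Hedgehog pathway genes showed 5 falls and 0 rises among 15, 3 falls without replicate 5 and 2 without replicates 3 and 5. SHH, the ligand gene, stood at 50.7, 152, 6.84, 6.67 and 0.668 scaled RPKM in replacement teeth and at 0 to 67.1 (median 17.3) in dental lamina. The SHH difference from the mean was 0.65 ± 1.0 (adjusted p = 0.645), and replicates 1 and 2 held most of its level. HHIP, the gene of a hedgehog-binding inhibitor, stood at 3.87, 2.57, 3.75, 6.07 and 1.21 beside 10.7 to 122 (median 21.0) and fell by 2.79 ± 0.41 (adjusted p = 7.91e-05) without overlap.

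Of 7 ectodysplasin pathway genes 2 fell and 0 rose. Without replicates 3 and 5 the counts were 1 and 0, and without replicates 1 and 2 they were 5 and 0. EDA, the ligand gene, fell by 2.15 ± 0.48 (adjusted p = 0.00222), from 1.06 to 24.1 (median 7.20) to 1.68, 2.76, 0.286, 1.05 and 0.823, with the groups overlapping. Among 12 Notch pathway genes 2 rose and 5 fell, beside 20.0% and 17.5% of all genes tested. The Notch falls numbered 2 to 5 with 1 library left out, and 3 without replicates 3 and 5. The lowest count came without IS replicate 3, EG replicate 4 or replacement tooth replicate 1. JAG1, a ligand gene, fell by 1.22 ± 0.17 (adjusted p = 5.41e-05) and HEY1, a target gene, rose by 1.67 ± 0.36 (adjusted p = 0.00162).

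Of 22 transcription factors of dental mesenchyme 12 fell and 2 rose, with a median of -0.77, and 9 fell and 2 rose without replicates 3 and 5. PAX9, needed for tooth buds to advance in mice, stood at 4.85, 0.999, 2.07, 3.37 and 2.29 scaled RPKM in replacement teeth and at 5.71 to 13.4 (median 7.85) in dental lamina, a fall of 1.73 ± 0.22 (adjusted p = 2.42e-05) without overlap. PRRX1, a factor of craniofacial mesenchyme, stood at 1.89, 0.105, 1.24, 3.31 and 7.09 beside 5.19 to 61.4 (median 34.0), a fall of 3.57 ± 0.44 (adjusted p = 1.57e-05). TWIST1 stood at 8.91, 1.93, 9.09, 8.63 and 9.54 beside 14.4 to 47.5 (median 20.8), a fall of 1.71 ± 0.32 (adjusted p = 0.000628). MSX1 and RUNX2, 2 further mesenchymal factors, did not pass the test, at -0.30 ± 0.23 (adjusted p = 0.321) and -0.44 ± 0.28 (adjusted p = 0.225).

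Among 16 epithelial factors 5 fell and 1 rose, beside 17.5% and 20.0% of all genes tested, and 8 fell without PIS replicate 5. SOX2, a factor of dental lamina stem cells in reptiles and mammals, stood at 0.25, 0.127, 0.0221, 0.399 and 0.226 scaled RPKM in replacement teeth and at 0.896 to 4.24 (median 2.24) in dental lamina. It fell by 1.96 ± 0.16 (adjusted p = 3.46e-07), and no library overlapped. SOX2 passed the filter on low values through dental lamina alone, which favours such a separation. TFAP2C stood at 9.88, 2.99, 2.60, 7.73 and 8.98 beside 14.0 to 51.8 (median 29.3), a fall of 2.23 ± 0.30 (adjusted p = 3.68e-05). Replicates 2 and 3 were the lowest for TFAP2C, and all 5 replacement teeth lay below dental lamina. Without replicates 3 and 5, 3 of the 16 factors fell.

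Epithelial structure genes also depended on replacement tooth replicates 3 and 5, and on PIS libraries. Of 27 keratin and junction genes 2 rose and 6 fell, beside 20.0% and 17.5% of all genes tested. Against every stage 0 rose and 0 fell. The median was -0.33, and without replicates 3 and 5 there were 2 rises, 1 fall and a median of 0.16. Without replicate 3 alone 3 fell. Without PIS replicates 4 and 5 together 9 fell, 1 fell against every stage, and the median was -0.45. The summed level of the list ran from 293 to 1405 scaled RPKM in replacement teeth and from 319.8 to 1533 in dental lamina. It was lowest in replacement tooth replicate 3 and, within dental lamina, in PIS replicate 5. KRT8, a keratin of simple epithelia, fell by 1.85 ± 0.44 (adjusted p = 0.00377), and that call was lost without replicates 3 and 5 (-1.11, adjusted p = 0.0936). KRT14, a keratin of basal epithelial cells, stood at 48.9, 25, 30.5, 30.2 and 395 beside 31.6 to 308 (median 183). The KRT14 difference of -1.63 ± 0.54 (adjusted p = 0.0264) was not called without replicate 2 (adjusted p = 0.0792), 3 (0.0822) or 4 (0.0788). The epithelial cadherin gene CDH1 differed by -0.03 ± 0.57 (adjusted p = 0.975) and the mesenchymal filament gene VIM by -0.23 ± 0.24 (adjusted p = 0.48).

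Ribosomal protein genes were lower almost without exception. Of 41 genes 40 fell and 0 rose, with a median log2 fold change of -0.91, and 39 to 41 fell with any 1 library left out. Under quantile normalization 32 fell, with a median of -0.54. The falls numbered 34 without replicates 3 and 5, with a median of -0.67. Their summed level was 27285, 19162, 14025, 13678 and 13109 scaled RPKM in replacement teeth and 23728 to 41098 in dental lamina, so replicate 1 overlapped and the other replicates did not. RPL12, a protein of the large subunit, fell by 0.99 ± 0.14 (adjusted p = 7.23e-05), at 133, 91.2, 69.8, 67.2 and 67.0 beside 125 to 223 (median 168). RPS19 and RPSA, of the small subunit, fell by 1.0 ± 0.15 (adjusted p = 9.43e-05) and 0.78 ± 0.12 (adjusted p = 0.000137). Against every stage 18 fell, but 1 without EG replicate 2, 1 without replacement tooth replicate 3, and 38 without replacement tooth replicate 1. With any other single library left out, 3 to 25 fell against every stage, and without replicates 3 and 5 it was 0. That count was 39 without scaling, 40 with array weights, 40 without replicates 1 and 2, and 7 without the filter on low values.

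Among 21 genes of glycolysis and the hypoxia response 10 rose and 2 fell, with a median of 0.36, and without scaling 6 rose and 5 fell. CA9, a carbonic anhydrase gene induced by low oxygen, stood at 2.40, 7.41, 12.9, 6.40 and 8.58 scaled RPKM in replacement teeth and at 0 to 0.12 (median 0.0397) in dental lamina. It rose by 3.71 ± 0.24 (adjusted p = 2.52e-08). ENO1, a glycolytic enolase gene, stood at 304, 302, 431, 449.6 and 338 beside 123 to 246 (median 163), a rise of 1.07 ± 0.11 (adjusted p = 2.93e-06). LDHA, a lactate dehydrogenase gene, rose by 0.95 ± 0.14 (adjusted p = 9.78e-05). Replacement teeth lay above all dental lamina libraries for these 3 genes. CA9 passed the filter on low values through replacement teeth alone, which favours such a separation.

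Of 31 oxidative phosphorylation genes 15 rose and 1 fell after scaling, with a median of 0.24, whereas without scaling 1 rose and 5 fell, with a median of -0.02. NDUFS1, a subunit gene of complex I, was higher by 0.43 ± 0.07 (adjusted p = 0.000329) after scaling and by 0.17 (adjusted p = 0.0855) without it. UQCRFS1, of complex III, was higher by 0.62 ± 0.11 (adjusted p = 0.000328) and ATP5O, of the ATP synthase, by 0.52 ± 0.11 (adjusted p = 0.0018). The ATP5O call was lost without scaling (adjusted p = 0.0752).

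Of 46 cell cycle genes 1 rose and 9 fell, beside 20.0% and 17.5% of all genes tested. Without replicates 3 and 5, 0 rose and 0 fell, whereas 18 fell without replicate 1. Replicates 1 and 2 held the highest summed levels of the replacement teeth, at 479 and 331 scaled RPKM, and replicates 3, 4 and 5 lay at 228, 235 and 266. The PIS libraries lay at 211 to 289, IS at 400 to 568 and EG at 375 to 518. CDK2, a kinase gene of the start of DNA replication, was lower by 0.72 ± 0.16 (adjusted p = 0.0024), a call lost without replicates 3 and 5 (adjusted p = 0.061) and with dental lamina as 1 group (adjusted p = 0.054). Of 18 immediate early genes, known to respond to handling of tissue, 0 were called, with a median of -0.62 and summed levels of 147 to 1588 in replacement teeth and 169 to 5241 in dental lamina. Their part in the other results was not tested.

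Markers of other cell types that dissected tissue could hold moved in both directions. Of 25 fibroblast and dental follicle genes 3 rose and 12 fell (1 and 13 without replicates 3 and 5), with a median of -1.06. Against every stage 1 rose and 2 fell. Their summed level was 1211 to 3588 scaled RPKM in replacement teeth and 1491 to 4803 in dental lamina, of which EG lay at 1491 to 2225. MFAP5, a microfibril gene, fell by 2.73 ± 0.32 (adjusted p = 1.06e-05), from 0.389 to 19.5 to at most 0.284. MFAP5 passed the filter on low values through dental lamina alone. THY1, a surface protein gene of mesenchymal cells, rose by 1.96 ± 0.33 (adjusted p = 0.000258). COL14A1, a collagen of fibroblasts, fell by 1.80 ± 0.32 (adjusted p = 0.000432), with replicate 2 at 32.5 beside 4.58 to 7.80 in the other replacement teeth.

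Of 15 smooth muscle and pericyte genes 1 rose and 9 fell against the mean, and 1 rose and 0 fell against every stage. Their summed level was 72.9 to 199 scaled RPKM in replacement teeth and 114 to 608 in dental lamina. The EG libraries, at 114 to 161, lay inside the replacement tooth range, and PIS lay at 287 to 608. ABCC9, a pericyte potassium channel subunit gene, was the one that rose, by 1.59 ± 0.24 (adjusted p = 1e-04). Of 22 endothelial genes 1 rose and 5 fell, beside 20.0% and 17.5% of all genes tested. Their summed levels were 67.2 to 205 in replacement teeth and 71.2 to 468 in dental lamina, highest in PIS and at 71.2 to 135 in EG. The falls numbered 3 without replicate 1 or 2, 1 without both of these, and 9 without replicates 3 and 5. PLVAP, a gene of fenestrated capillaries, was the endothelial riser, by 1.30 ± 0.29 (adjusted p = 0.00222), and its call was lost without replicates 3 and 5 (adjusted p = 0.0574).

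Of 15 Schwann cell and nerve genes 3 rose and 7 fell, beside 20.0% and 17.5% of all genes tested. NEFM, a neurofilament gene of axons, stood at 2.12, 8.86, 9.47, 4.84 and 5.00 scaled RPKM in replacement teeth. In dental lamina it stood at 0.015 to 0.687 (median 0.154), a rise of 3.12 ± 0.25 (adjusted p = 2.38e-07) without overlap. NEFM passed the filter on low values through replacement teeth alone, which favours such a separation. UCHL1, a neuronal ubiquitin hydrolase gene, rose by 1.31 ± 0.20 (adjusted p = 0.000106). NGFR, a neurotrophin receptor gene of Schwann cells, fell by 1.69 ± 0.26 (adjusted p = 0.000112). Of 23 axon guidance and neurotrophic genes 8 rose and 3 fell, beside the same shares. Among these, SEMA5A, a guidance protein gene, rose by 1.90 ± 0.19 (adjusted p = 2.93e-06), and SLIT1 rose by 2.33 ± 0.37 (adjusted p = 0.000178). Without scaling 6 of the 23 rose and 8 fell, and without replicates 3 and 5 the counts were 5 and 3.

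Of 4 red blood cell genes 3 rose and 1 fell, and the list's summed level was 115 to 1087 scaled RPKM in replacement teeth, highest in replicate 4, and 22.2 to 348 in dental lamina. GYPC, a glycophorin gene, rose by 1.97 ± 0.27 (adjusted p = 4.89e-05). Of 12 cartilage genes 5 rose and 1 fell, with a median of -0.26, and 3 of the risers are the collagen genes COL2A1, COL9A1 and COL11A2. UCMA, a cartilage matrix gene, stood at 6.22, 3.89, 8.93, 6.70 and 6.15 in replacement teeth and at 0.287 to 2.35 (median 0.54) in dental lamina, a rise of 2.41 ± 0.19 (adjusted p = 2.42e-07). Of 11 osteoclast genes 4 rose and 2 fell, beside 20.0% and 17.5% of all genes tested. The counts were 2 and 3 without scaling, and 2 and 1 without replicates 3 and 5. ITGB3 was a riser (1.51 ± 0.20, adjusted p = 4.12e-05). CTSK, the osteoclast collagen protease, fell by 1.57 (adjusted p = 0.0148), a call lost without replicate 2 (adjusted p = 0.0535). The calls of LAPTM5 among leukocyte genes (0.42, adjusted p = 0.0398) and TGM1 among cornified envelope genes (0.39, adjusted p = 0.0249) were lost without scaling and when single libraries were left out, among them replicates 2 and 4 for LAPTM5 and replicate 5 for TGM1 (adjusted p = 0.114, 0.143 and 0.0874). None of 4 melanocyte genes passed the test. The part of these cell types in the other results was not tested.

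Of the 36 lists, those of enamel, immediate early, dentin and bone matrix and fibrillar collagen genes had the widest ranges among the 5 replacement teeth. As the mean log2 level of a list minus its mean over the 5 libraries, enamel genes stood at 0.77, 1.44, -0.99, 1.16 and -2.37 in replicates 1 to 5. Fibrillar collagens stood at -1.04, -0.99, 0.59, 0.16 and 1.27, and dentin and bone matrix genes at -0.95, -1.03, 0.26, 0.21 and 1.51. Replicates 1 and 2 were thus high for enamel and low for both matrix lists, replicate 5 was the reverse, and replicate 4 was above the mean for all 3. Secretory pathway genes spanned 0.61 on this scale and oxidative phosphorylation genes 0.24. The labels do not give the growth stage or size of each replacement tooth, and 5 libraries are too few to test a relation between the lists.

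**Figure D5:**
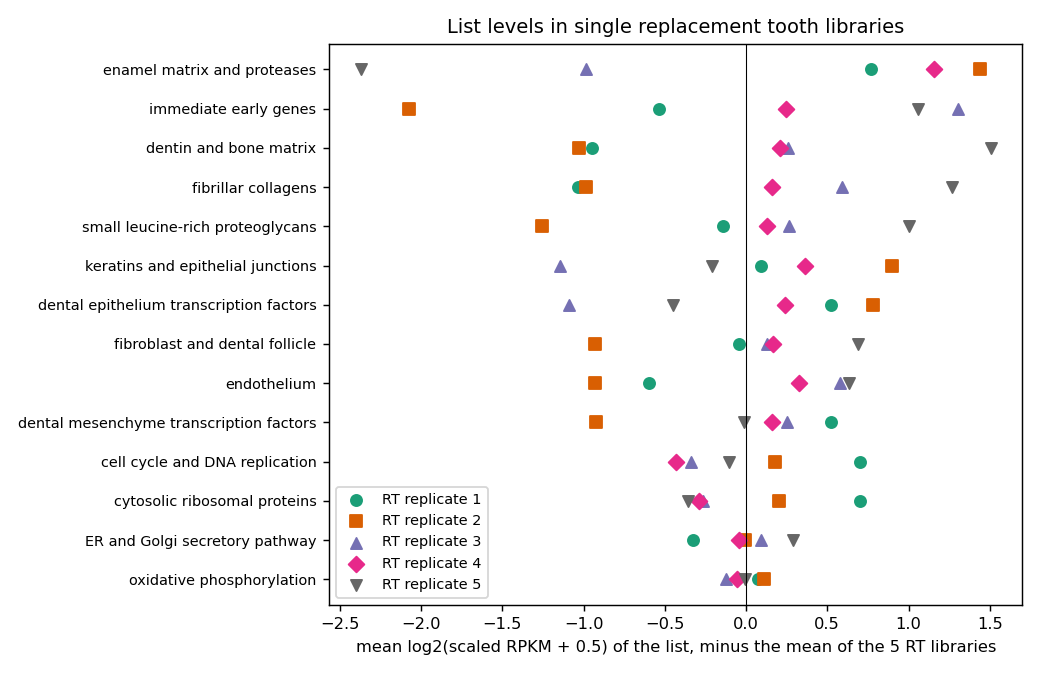
Mean log2(scaled RPKM + 0.5) of 14 gene lists in each replacement tooth library, minus the mean of the 5 libraries (x), by list (y), with a symbol per replicate. Enamel genes run from -2.37 in replicate 5 to 1.44 in replicate 2, fibrillar collagens from -1.04 in replicate 1 to 1.27 in replicate 5, and oxidative phosphorylation genes span 0.24.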

How the data were processed

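Gene expression of 17 tooth libraries was taken from 1 table of RPKM deposited by the authors, a unit relative to gene model length and depth. Per the labels' protocols, RNA was extracted with Trizol and libraries were made with an Illumina TruSeq kit. The submitters' processing notes name the tools TopHat2 (2.1.0) and Partek (3) without saying what each did. For genome build, annotation and strand, the sources used here give nothing, so no positions are reported and overlapping genes are uncertain. Gene names are those of the table, and 11479 symbols matched the RefSeq table of the rAllMis1 assembly. Groups come from the titles, because the label field for tooth cycle stage reads pre-initiation for every sample.

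The row of alignment numbers was dropped. Values were divided by median-ratio factors over the 13662 genes above 0 in every library, genes with an RPKM of at least 1 in at least 3 libraries were kept (12904 of 20703), and limma 3.58.1 in R 4.3.3 fitted group means to log2(value + 0.5) with a mean-variance trend. Calls are Benjamini-Hochberg adjusted p under 0.05. The values are not counts, so no count test and no counting interval was used. On simulated data of 12525 genes the fit recovered 85% of log2 changes of 1 against the mean of the stages (60% against every stage) and 98% of changes of 2 (91%), with 12 and 0 unchanged genes called. The simulated dental lamina had the same mean in all stages, with equal, independent noise in all libraries. Changes of each size were given to 100 genes, none of them among the lowest in level. These rates may therefore not hold for the real libraries, which differ between stages and among replacement teeth.

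The comparison, the 36 gene lists (852 genes, 736 in the table, 648 tested) and the tests were chosen with earlier results of these data known. The naming rule took the 12 greatest rises and 12 greatest falls among symbol-named genes that differed from every stage without overlap, up to 3 members per list called against every stage (or the 1 with the smallest p) and a set of anchor genes. Further list members and SPP1, SPARC, COL1A2, COL3A1, ALPL, GREM1, LGR5, FAM20A, ACPT, COL4A5, COL4A6, COL22A1, SLC20A1, ACTA1 and CTSK were named after their values were seen. Alternatives were other scalings, pseudocounts (0.1 and 1) and filters, limma's array weights, a fit without the trend, a required log2 fold change of 1, other references, the replicate number as a block, and leaving out libraries singly or in pairs. AMELX, AMEL, DSPP, DMP1, MEPE and KRT5 were not analysed here, and a few genes within these rules are not reported here.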

Additional observations from a re-analysis of the deposited data

Results flagged for a closer look

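For 94 genes picked by the naming rule, each group of 4 or 5 libraries was searched for a single library far from the others. Of 282 groups 20 had one, 7 in replacement teeth, 7 in PIS and 6 in EG, and chance flags about 1 in 20 groups. All values are scaled RPKM.

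In replacement teeth, replicate 2 stood apart for TWIST1 (1.93 beside 8.63 to 9.54), for BMP4 (4.52 beside 13.1 to 16.9) and for COL14A1 (32.5 beside 4.58 to 7.80). Replicate 5 stood apart for KRT14 (395 beside 25 to 48.9) and TGM1 (24.1 beside 13.7 to 14.7), both keratinocyte genes. Replicate 1 held the high FGF10 value (6.29 beside 0.192 to 0.739) and replicate 4 the high OLFML1 value (0.403 beside 0.0899 to 0.152).

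In PIS, replicate 5 was low for CDH1 (0.783 beside 11.4 to 25.9) and for FAM20C (1.93 beside 6.12 to 9.07). Replicate 4 was low for CTSW (3.95 beside 28.0 to 55.7) and high for SHH (25 beside 0 to 0.264). Replicate 3 was high for FST (49.7 beside 25.7 to 29.6) and SLC45A2 (3.08 beside 1.87 to 2.16), and replicate 1 for FGF10 (4.50 beside 2.36 to 2.67).

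In EG, replicate 1 was low for OLFML1 (1.05 beside 2.33 to 2.63) and LEF1 (7.73 beside 12 to 12.7) and high for LDHA (49.6 beside 42.2 to 43.0). Replicate 4 was low for LOXL4 (1.33 beside 3.92 to 4.66) and high for ABCC9 (1.69 beside 1.22 to 1.24). Replicate 2 was high for MSX1 (37.4 beside 21.3 to 22.3).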

How the results depend on the processing

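Of 121 genes examined, 114 were called against the mean of the stages, beside 37.6% of all genes tested. Of these, 90 kept the call in every other setting that tested them (30, or 29 where a filter removed the gene), all 114 kept their sign there, and 55 were called when a log2 fold change of at least 1 was required. Of 87 genes called against every stage 50 remained so in every setting that tested this (29, or 28 where a filter removed the gene). The choice of genes favoured called genes, so these counts describe the named genes alone. Over all genes, 484 of the 1363 called against every stage remained so without replacement tooth replicates 3 and 5.

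Counts of called genes moved as follows. Without scaling, 1355 genes were higher and 4683 lower than the mean, 5659 differed from EG, and 2092 differed from every stage (483 higher, 1609 lower). With only genes of a mean scaled RPKM of 5 or more, which tests fewer genes, 3141 differed from the mean (1349 lower), 3627 from PIS and 2242 from IS. With array weights 6201 differed from IS, 5982 from EG and 3080 from every stage (1790 higher, 1290 lower), and the cause was not tested. Requiring a log2 fold change of 1 left 326 against the mean (221 higher, 105 lower), 559 against PIS, 267 against IS, 66 against EG and 59 against every stage (55 higher, 4 lower). Alternatives chosen after seeing the data left out pairs of libraries, and the cause of their effect was not tested. Without replacement tooth replicates 3 and 5, 2857 differed from the mean (1528 higher, 1329 lower), 2101 from IS, 621 from EG and 505 from every stage (349 higher, 156 lower). Without replicates 1 and 2, 4027 differed from EG and 2500 from every stage (1503 higher, 997 lower). Leaving out PIS replicates 4 and 5 kept all counts within 1.5 times.

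With 1 library left out, calls numbered 3892 to 5316 against the mean (2095 to 2815 higher, 1797 to 2501 lower), 5254 to 6018 against PIS, 2242 (without IS replicate 3) to 4092 against IS and 1037 to 3189 against EG. Against every stage they numbered 798 to 2168 (549 to 1331 higher, 245 to 837 lower). The lowest EG and every-stage totals came without replacement tooth replicate 3, the highest without replicate 1.

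With the replicate number as a block, 4528 genes differed from the mean and 1076 from every stage. The numbers did not pair the libraries: 8 of 22 same-numbered pairs had correlated deviations over 0.1 (range -0.48 to 0.36), and 4 of 17 libraries correlated best with their own number.

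The sign turned for 5 genes, none of them called. VIM was 0.18 under quantile normalization, 0.062 with array weights, 0.21 without replicates 1 and 2, and -0.38 to 0.070 with single libraries left out. SHH was -0.26 with array weights, -0.22 without replacement tooth replicate 2 and -1.14 without replicates 1 and 2. CDH1 was 0.20 under the replicate block, 0.076 with dental lamina as 1 group, 0.59 without replicates 3 and 5 and -0.35 to 0.46 with single libraries left out, above 0 in 6 of these. MSX1 was 0.026 and RUNX2 0.011 without replicates 1 and 2. RPKM holds no counts, so the precision of low values is unknown.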

Other observations

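CALB1 and LAMB3 were picked after their values were seen, and 2 members of the ameloblast support list, SCNN1D and CA2, differed from EG where these did not pass. CALB1, the gene of the calcium-binding protein calbindin, stood at 393, 919, 52.7, 567 and 0.377 scaled RPKM in replacement teeth and at 0 to 316 in dental lamina. It rose by 4.67 ± 1.26 against the mean of the stages (limma, adjusted p = 0.00822) and differed by 0.57 from EG (adjusted p = 0.842). LAMB3, a chain of an epithelial laminin of basement membranes, rose by 2.07 (adjusted p = 0.00607), with a difference of -0.08 from EG (adjusted p = 0.953). The CALB1 and LAMB3 calls were lost without replicates 1 and 2 (adjusted p = 0.104 and 0.0851) and with dental lamina as 1 group (adjusted p = 0.0518 and 0.0669). Both genes were high in replicates 1, 2 and 4 and low in replicates 3 and 5. TGFB3, a ligand gene of the TGF-beta family, was another case, at 29.7, 38.2, 92.4, 66.5 and 67.0 beside 9.37 to 29.9. It rose by 1.81 ± 0.27 (adjusted p = 8.95e-05) and by 1.99 against EG (adjusted p = 0.00117).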
